A study of Caenorhabditis elegans with 8 samples.

Results

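Small RNA pathways of Caenorhabditis elegans depend on enzymes that cut double-stranded RNA, that copy RNA into more small RNA, and that hold these steps together in the germ line. The 10 genes described here encode such factors and were chosen by sequence name: dcr-1 (K12H4.8), rde-4 (T20G5.11), eri-1 (T07A9.5), rrf-3 (F10B5.7), ego-1 (F26A3.3), rrf-1 (F26A3.8), drh-3 (D2005.5), mut-2 (K04F10.6), mut-7 (ZK1098.8) and mut-16 (B0379.3). They are 10 of the 21774 genes in the deposited table, and all 10 passed the filter on low values. Polyadenylated RNA was sequenced from sperm, oocytes, 1-cell embryos and 2-cell embryos, in 2 libraries each, a design that spans fertilization and the first cleavage. The labels give the strain TX189(OMA-1::GFP) and 24 degrees Celsius for all libraries, whereas the protocol has oocytes hand-picked from dissected wild-type N2 hermaphrodites and sperm purified from males of a fog-2(q71) background, activated with Pronase. The protocol describes flow sorting of 1-cell embryos and gives no method for 2-cell embryos. Strain and collection method therefore cannot be told apart from stage. Nothing says whether the 2 libraries of a group came from separate cultures. P-values therefore measure the spread between libraries, pooled over the 4 groups, which may be technical.

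Dicer, encoded by dcr-1, cuts double-stranded RNA into small RNAs with the help of the double-stranded RNA-binding protein RDE-4. RNA-dependent RNA polymerases then make further small RNAs on target transcripts: RRF-3 works with Dicer and the exonuclease ERI-1 in the ERI complex to make primary small RNAs of the germ line and embryo, and EGO-1 and RRF-1 make the secondary small RNAs that Argonaute proteins carry. The helicase-related protein DRH-3 is a partner of these polymerases. The mutator proteins MUT-2, MUT-7 and MUT-16 act in foci beside P granules where secondary small RNAs are amplified.

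Values are RPKM, reads scaled for transcript length and library size, as deposited, so levels can be set against each other between genes. A difference is given as a log2 fold change of RPKM + 1 with its standard error (SE), from limma's moderated test fitted to 11935 genes. A gene was called where the adjusted p was under 0.05 and the log2 fold change at least 1 in size. The table holds no read counts. Rough depths, from the commonest low value of RPKM times transcript length, were 1.76e+07 to 7.0e+07 reads in the embryo and sperm libraries, which would put between 620 and 15000 reads behind each of these genes in each of those 6 libraries. The upper ends come from sperm replicate 2, where that value held 0.748% of genes above 0 with a known length. It held 1.21% to 1.79% in the other embryo and sperm libraries and 0.463% and 0.447% in oocytes, so the depth of sperm replicate 2 is less certain. The same estimate was not used for oocytes, whose low values showed no clear step and whose columns listed 2.48% and 2.93% of genes at 0, against 12.7% to 29.4% in the other libraries. How these columns came to differ was not stated, and the part of that difference in comparisons with oocytes was not tested. The median gap between the libraries of a group was 0.58 log2 in sperm, 0.13 in oocytes, 0.43 in 1-cell and 0.41 in 2-cell embryos. The test shares 1 estimate of the spread per gene among all groups, although these gaps differ. Marker genes went with the labels: 9 sperm markers summed to 8170 and 8700 RPKM in sperm and to at most 64.1 RPKM elsewhere, and 8 oocyte markers to 13200 and 14200 RPKM in oocytes. The oocyte markers summed to 659 and 168 RPKM in sperm and to between 934 and 1990 RPKM in embryos, and their part in the gap between the sperm libraries of eri-1, ego-1, mut-7 and mut-16, which were higher in replicate 1 too, was not tested. The 4 body wall muscle markers summed to 482 and 523 RPKM in sperm, with unc-54 at 240.0 and 215 RPKM and unc-15 at 229 and 292 RPKM, and to at most 1.88 RPKM in any other library. The 5 intestine markers summed to 84.7 and 20.8 RPKM in sperm and at most 3.67 RPKM elsewhere. The part of these somatic transcripts in the sperm results below was not tested.

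**Figure D1:**
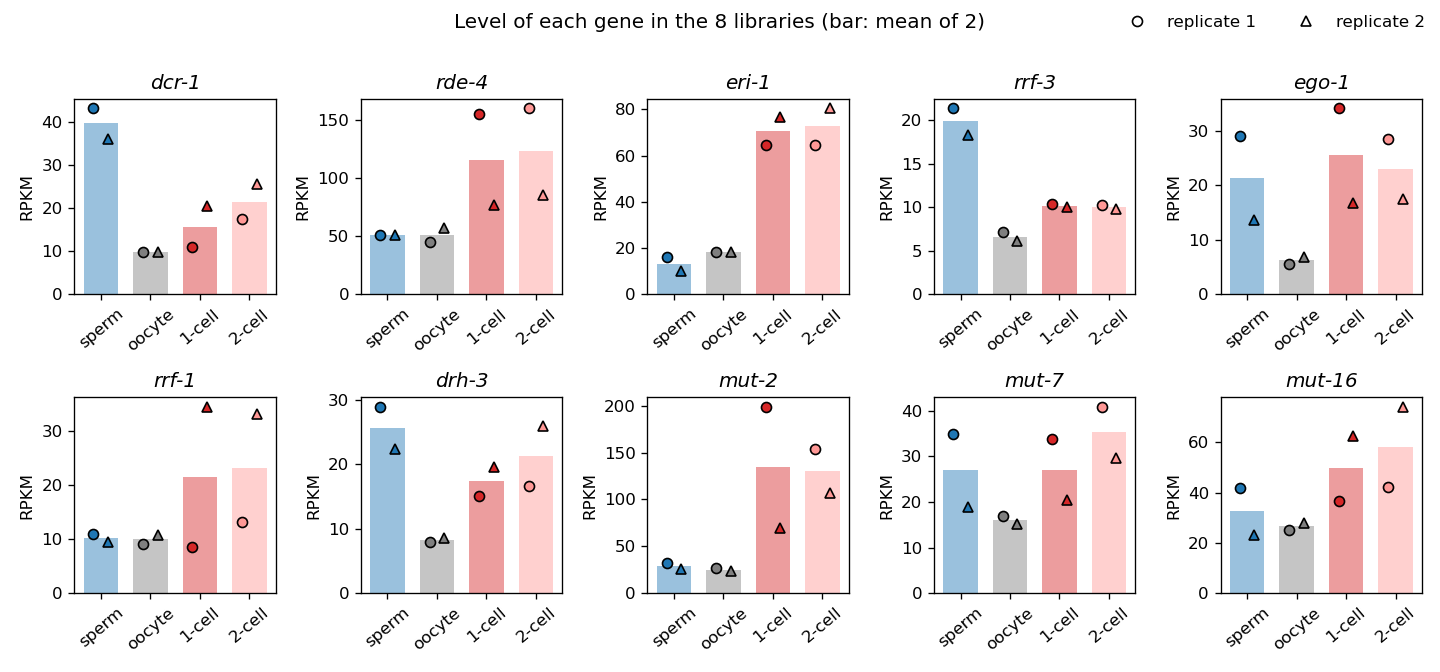
RPKM of the 10 genes in each library (points; circles are replicate 1, triangles replicate 2) with the mean of each group (bars), on separate axes that start at 0. dcr-1 and rrf-3 stood highest in both sperm libraries, eri-1 and mut-2 in all 4 embryo libraries, and ego-1 and rrf-1 differed between the embryo replicates.

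The Dicer gene was highest in sperm. dcr-1 had 43.4 and 36.1 RPKM in sperm, 9.85 and 9.82 RPKM in oocytes, 11.1 and 20.5 RPKM in 1-cell embryos and 17.5 and 25.7 RPKM in 2-cell embryos. Both sperm libraries lay above all 6 others, and the embryo stages overlapped each other. The mean in sperm was 39.8 ± 5.13 RPKM, against 9.84 ± 0.021 RPKM in oocytes (SD, n = 2 each), a log2 fold change of 1.91 (SE 0.40, limma adjusted p = 0.00336). Set against 1-cell embryos, at 15.8 ± 6.65 RPKM, the log2 fold change in sperm was 1.33 (SE 0.40, limma adjusted p = 0.0163). The call against 1-cell embryos ended with a fit of these 2 groups alone (limma adjusted p = 0.0585) and after a correction for transcript length (log2 0.39, limma adjusted p = 0.364). It also ended without 1-cell replicate 1 (0.92) or sperm replicate 1 (1.20). The embryo stages did not pass against oocytes: log2 0.57 for 1-cell (limma adjusted p = 0.341) and 1.03 for 2-cell embryos (limma adjusted p = 0.0970).

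rde-4, the gene for Dicer's RNA-binding partner, was the most abundant of the 10 in both gametes and followed another order. It had 51.1 and 51.0 RPKM in sperm, 45.02 and 57.2 RPKM in oocytes, 154.8 and 77.1 RPKM in 1-cell embryos and 160.3 and 85.8 RPKM in 2-cell embryos. All 4 embryo libraries lay above all 4 gamete libraries, with replicate 1 of each embryo stage well above replicate 2. None of these differences was called: 1-cell embryos stood at log2 1.09 over oocytes (SE 0.45, limma adjusted p = 0.118) and sperm at -1.08 relative to 1-cell embryos (limma adjusted p = 0.0612). Without 1-cell replicate 2 the sperm comparison gave -1.58 and passed (limma adjusted p = 0.0209), as did the fit with a replicate block (limma adjusted p = 0.0474).

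The exonuclease gene eri-1 was high in embryos and low in both gametes. It had 16.2 and 10.1 RPKM in sperm, 18.3 RPKM in each oocyte library, 64.8 and 76.5 RPKM in 1-cell embryos and 64.8 and 80.6 RPKM in 2-cell embryos. The 4 embryo libraries did not overlap any gamete library, and the lowest of them stood above 64 RPKM. The mean was 70.6 ± 8.29 RPKM in 1-cell embryos and 18.3 ± 0.017 RPKM in oocytes (SD, n = 2 each), a rise of 1.89 log2 (SE 0.35, limma adjusted p = 0.0117). In 2-cell embryos, at 72.7 ± 11.2 RPKM (SD, n = 2), the rise was 1.92 log2 (limma adjusted p = 0.0132), a call that ended under 5 of 18 alternatives, either left-out oocyte library and 2-cell replicate 2 (1.77) among them. In sperm, at 13.1 ± 4.33 RPKM, eri-1 fell by 2.37 log2 relative to 1-cell embryos (SE 0.35, limma adjusted p = 4.60e-04), a call that stayed under each of 18 alternatives, with values between -2.80 and -2.04. The difference between sperm and oocytes did not pass as deposited (log2 -0.48, limma adjusted p = 0.257) and was called lower in sperm with libraries scaled to a common sum (-1.02) or quantile normalized (-1.46). The rise over oocytes ended with median-of-ratios scaling (log2 1.15), with quantile normalization (1.34) and without either oocyte library (1.89 each, limma adjusted p = 0.108 without replicate 1 and 0.110 without replicate 2). Both neighbours of eri-1 lie within 52 bases in the WBcel235 annotation. The tumour suppressor homolog daf-18 had 80.2 and 212 RPKM in 1-cell embryos and 175 and 171 RPKM in oocytes, and T07A9.12 stayed under 3 RPKM in every library. Reads were not stated to be counted by strand.

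rrf-3, the polymerase gene of the same ERI complex, was highest in sperm. It had 21.4 and 18.3 RPKM in sperm, 7.10 and 6.09 RPKM in oocytes, 10.4 and 9.97 RPKM in 1-cell embryos and 10.3 and 9.76 RPKM in 2-cell embryos. Both sperm libraries lay above all others and both oocyte libraries below, and the 4 embryo libraries spanned less than 1 RPKM. Sperm averaged 19.8 ± 2.17 RPKM, against 6.60 ± 0.72 RPKM in oocytes (SD, n = 2 each), a rise of 1.46 log2 (SE 0.31, limma adjusted p = 0.00405). That call ended with libraries scaled to a common sum (log2 0.94) and with quantile normalization (0.85). Relative to 1-cell embryos the difference in sperm, 0.90 log2, passed in p (limma adjusted p = 0.0322) and missed the fold of the call. After the length correction it was 0.03 log2, and with median-of-ratios scaling it was 1.21 and called. The annotation places 37 exon bases of rrf-3 opposite T05C12.11, which stayed under 1 RPKM in all libraries.

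Among the ERI complex genes, the proportion of eri-1 to its partners differed between sperm, oocytes and embryos, with no test run on the ratios. The ratio of eri-1 to rrf-3 RPKM was 0.758 and 0.550 in sperm, 2.58 and 3.01 in oocytes. In embryos it was 6.23 and 7.67 at the 1-cell stage, then 6.31 and 8.26 at the 2-cell stage. No library of sperm, oocytes or embryos overlapped another of these 3 kinds in that ratio. The ratio of eri-1 to dcr-1 had the same order, at 0.373 and 0.279 in sperm, 1.86 and 1.87 in oocytes, and 3.14 to 5.84 in embryos. The ratio of rrf-3 to dcr-1 was 0.493 and 0.507 in sperm, 0.721 and 0.620 in oocytes, and 0.380 to 0.937 in embryos, so that embryo libraries spanned both gametes. The longest annotated transcript has 1898 bases for eri-1, 5530 for rrf-3 and 5883 for dcr-1. In 1-cell embryos against oocytes the log2 fold changes were 1.89, 0.56 and 0.57 as deposited. After a correction for transcript length they were 1.87, 1.18 and 1.215, which lie closer together. The ratios themselves were not corrected for length.

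**Figure D2:**
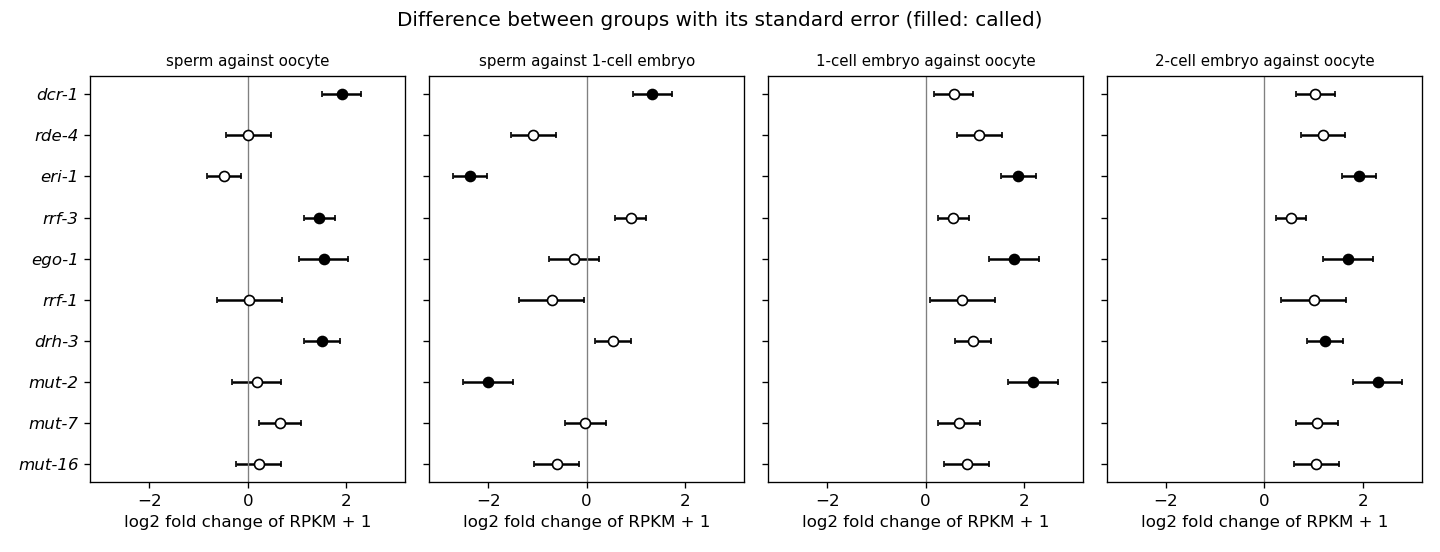
Log2 fold change of RPKM + 1 for each gene (points, with the standard error of limma's fit as bars) in 4 comparisons; filled points were called. eri-1 and mut-2 were called lower in sperm than in 1-cell embryos and dcr-1 higher, while every gene lay right of 0 in embryos against oocytes.

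ego-1, the polymerase gene needed for germ line small RNAs and fertility, was lowest in oocytes. It had 29.0 and 13.7 RPKM in sperm, 5.64 and 6.83 RPKM in oocytes, 34.2 and 16.8 RPKM in 1-cell embryos and 28.5 and 17.5 RPKM in 2-cell embryos. Both oocyte libraries lay below all 6 others, and sperm and embryos overlapped, with replicate 1 above replicate 2 in each of these groups. Relative to oocytes, ego-1 was called higher by 1.80 log2 in 1-cell embryos (SE 0.51, limma adjusted p = 0.0386), by 1.70 in 2-cell embryos (limma adjusted p = 0.0480) and by 1.54 in sperm (limma adjusted p = 0.0278). These 3 comparisons share the oocyte libraries. The calls were close to the threshold: the 1-cell call ended under 9 of 18 alternatives, the 2-cell call under 11 and the sperm call under 6. Leaving out single libraries took the 1-cell value to between 1.31, without 1-cell replicate 1 (limma adjusted p = 0.159), and 2.29, without 1-cell replicate 2, where the call was kept. The call also ended without oocyte replicate 1 (1.68, limma adjusted p = 0.202) and without oocyte replicate 2 (1.92, limma adjusted p = 0.161). The sperm value was 1.02 without sperm replicate 1 (limma adjusted p = 0.177).

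rrf-1, the polymerase gene of somatic RNAi that lies next to ego-1, was not called in any comparison. It had 10.9 and 9.48 RPKM in sperm, 9.17 and 10.8 RPKM in oocytes, 8.48 and 34.4 RPKM in 1-cell embryos and 13.1 and 33.1 RPKM in 2-cell embryos. The gametes overlapped, and in both embryo stages replicate 2 stood far above replicate 1, which was close to the gametes. The gap between the 1-cell libraries was 1.90 log2, larger than that of 97.4% of the genes tested, and that between the 2-cell libraries was 1.27 log2, larger than that of 92.3%. The log2 fold change of 1-cell embryos over oocytes was 0.74 (SE 0.66, limma adjusted p = 0.476), with -0.21 left without 1-cell replicate 2. In sperm against 1-cell embryos it was -0.71 (limma adjusted p = 0.356), and -1.66 without 1-cell replicate 1 (limma adjusted p = 0.0327).

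The 2 neighbouring polymerase genes therefore changed places between embryo replicates. Same-numbered libraries of the embryo stages deviated together over all genes (Pearson's r 0.877), so the stages are not independent repeats. The gap between replicates of ego-1 was larger than that of 79.6% of genes tested in 1-cell and 69.5% in 2-cell embryos. The ratio of ego-1 to rrf-1 RPKM was 4.03 in replicate 1 and 0.489 in replicate 2 of the 1-cell embryos, and 2.17 and 0.528 in those of the 2-cell embryos. It was 2.65 and 1.44 in sperm and 0.615 and 0.633 in oocytes. The sum of both genes varied less between embryo replicates, at 42.7 and 51.3 RPKM in 1-cell and 41.7 and 50.5 RPKM in 2-cell embryos. It was 39.9 and 23.1 RPKM in sperm and 14.8 and 17.6 RPKM in oocytes. In the WBcel235 annotation the genes lie on the same strand of chromosome I, 563 bases apart, with no other annotated protein-coding gene between them. They are related in sequence, and how the authors treated reads that match both was not stated. The part of such reads in the split between the genes was not tested.

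**Figure D3:**
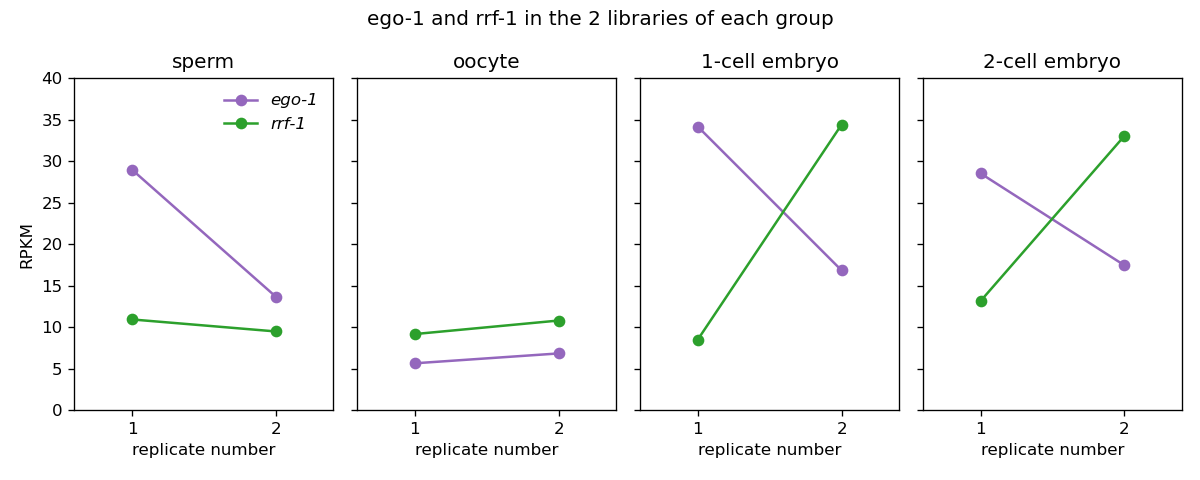
RPKM of ego-1 and rrf-1 (y axis, from 0) in replicates 1 and 2 (x axis) of sperm, oocytes, 1-cell and 2-cell embryos; lines join the libraries of a group for the eye. ego-1 was the higher gene in replicate 1 of both embryo stages and rrf-1 in replicate 2, at 34.2 against 8.48 RPKM and 16.8 against 34.4 RPKM in 1-cell embryos.

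drh-3, the helicase-related partner of the polymerases, had the same order of group means as dcr-1. It had 28.9 and 22.4 RPKM in sperm, 8.02 and 8.61 RPKM in oocytes, 15.02 and 19.6 RPKM in 1-cell embryos and 16.6 and 25.9 RPKM in 2-cell embryos. Both oocyte libraries lay below all others, while sperm lay above 1-cell embryos and overlapped 2-cell embryos. drh-3 was called higher than in oocytes by 1.51 log2 in sperm (SE 0.36, limma adjusted p = 0.00711) and by 1.22 in 2-cell embryos (limma adjusted p = 0.0475). In 1-cell embryos the difference was 0.97 log2 (limma adjusted p = 0.0907), and after the length correction it was 1.39 and called (limma adjusted p = 0.0304). The 2-cell call ended under 12 of 18 alternatives, with each left-out library of the 2-cell, sperm and oocyte groups among them (0.92 to 1.53 log2), and the sperm call ended with a common sum (0.98) and without oocyte replicate 1 (1.46, limma adjusted p = 0.0548). Over the 8 libraries Pearson's r between log2 values was 0.909 for drh-3 and dcr-1, 0.895 for dcr-1 and rrf-3 and 0.813 for rrf-3 and drh-3. It was -0.305 for eri-1 and rrf-3. These describe 8 points that share libraries and groups.

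Among the mutator genes, mut-2, which encodes a nucleotidyltransferase that tails target RNAs, was high in embryos. It had 32.0 and 25.8 RPKM in sperm, 27.1 and 23.5 RPKM in oocytes, 198.7 and 70.0 RPKM in 1-cell embryos and 153.5 and 106.5 RPKM in 2-cell embryos. All 4 embryo libraries lay above all gamete libraries, and the gametes overlapped. The mean in 1-cell embryos was 134 ± 91.0 RPKM, against 25.3 ± 2.58 RPKM in oocytes (SD, n = 2 each), a rise of 2.18 log2 (SE 0.50, limma adjusted p = 0.0213). The rise was 2.30 log2 in 2-cell embryos (limma adjusted p = 0.0206). In sperm mut-2 fell by 2.00 log2 relative to 1-cell embryos (limma adjusted p = 0.00753), a call that ended under 1 of 18 alternatives, without sperm replicate 2 (-1.85, limma adjusted p = 0.0654). The 1-cell rise was 1.44 without 1-cell replicate 1 (limma adjusted p = 0.0632), 2.28 without oocyte replicate 1 (limma adjusted p = 0.122) and 2.08 without oocyte replicate 2 (limma adjusted p = 0.140), and those calls ended. In all the 1-cell call ended under 8 of 18 alternatives and the 2-cell call under 7, among them median-of-ratios scaling (1.44 at both stages) and each left-out 2-cell library (2.04 and 2.56) or oocyte library for the 2-cell call. mut-2 shares 67 annotated exon bases with bli-4 on the other strand, which had 30.6 and 43.5 RPKM in 1-cell embryos and 42.2 and 55.6 RPKM in oocytes.

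mut-7, encoding an exonuclease, and mut-16, encoding the scaffold on which mutator foci form, were called in no comparison. mut-7 had 34.9 and 19.0 RPKM in sperm, 16.9 and 15.3 RPKM in oocytes, 33.9 and 20.4 RPKM in 1-cell embryos and 40.9 and 29.7 RPKM in 2-cell embryos. mut-16 had 41.9 and 23.1 RPKM in sperm, 25.1 and 28.05 RPKM in oocytes, 36.8 and 62.6 RPKM in 1-cell embryos and 42.1 and 74.1 RPKM in 2-cell embryos. For both genes the embryo libraries lay above the oocyte libraries, and sperm overlapped 1-cell embryos. The log2 fold change of 1-cell embryos over oocytes was 0.68 for mut-7 (limma adjusted p = 0.292) and 0.83 for mut-16 (limma adjusted p = 0.226), and that of 2-cell embryos over oocytes 1.07 (limma adjusted p = 0.106) and 1.05 (limma adjusted p = 0.134). As with the polymerases, the mutator genes kept no common ratio between embryo replicates: mut-2 over mut-16 was 5.39 in replicate 1 and 1.12 in replicate 2 of the 1-cell embryos, against 1.08 and 0.837 in oocytes.

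As deposited, all 10 genes had a positive difference from oocytes at both embryo stages, of which a minority passed the test. In 1-cell embryos against oocytes 3 of 10 were called higher (eri-1, ego-1 and mut-2) and 0 lower, beside 17% of all genes tested called higher and 5.92% lower (23.0% in either direction). The median log2 fold change was 0.90 for the 10 genes and 0.35 for all genes. In 2-cell embryos against oocytes 4 of 10 were called higher and 0 lower, beside 16.4% higher and 5.17% lower (21.6% in either direction), with medians of 1.13 and 0.42. All 10 were higher in both 2-cell libraries than in both oocyte libraries, and 9 in 1-cell embryos, where 55.8% and 53.3% of all genes did so. None of the 10 lay wholly below oocytes, as 20.5% of all genes did in 2-cell and 22.1% in 1-cell embryos. These calls depended on the scaling. The deposited RPKM summed to 679187 and 642169 in the oocyte libraries and to between 832603 and 1013510 in the others. With libraries scaled to a common sum, the medians in 1-cell embryos were 0.49 for the 10 genes and 0.15 for all genes. With median-of-ratios scaling the medians were 0.18 for the 10 genes and 0.03 for all genes in 1-cell embryos, no gene of the 10 was called at either stage, and dcr-1, rrf-3 and mut-7 turned to -0.13, -0.12 and -0.06 in 1-cell embryos. After the length correction 5 were called higher in 1-cell embryos (eri-1, rrf-3, ego-1, drh-3 and mut-2) and 5 in 2-cell embryos (dcr-1, eri-1, ego-1, drh-3 and mut-2), beside 6.23% and 5.67% of genes called higher, and 10.4% and 9.08% lower. The longest annotated transcripts ran from 1204 bases for rde-4 to 5883 bases for dcr-1.

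In sperm against oocytes 4 of 10 were called higher (dcr-1, rrf-3, ego-1 and drh-3) and 0 lower, beside 36.7% of genes called higher and 24.6% lower (61.3% in either direction). The median log2 fold change was 0.44 for the 10 genes and 0.16 for all genes. Without overlap between libraries 5 were higher and 1 lower in sperm, beside 46.6% and 40.2%. After the length correction the same 4 genes were called, beside 31.5% higher and 33.4% lower. In sperm against 1-cell embryos 1 was called higher (dcr-1) and 2 lower (eri-1 and mut-2), beside 35.3% and 33.2% (68.5% in either direction). The medians were -0.43 for the 10 genes and -0.18 for all genes. The log2 fold changes of this comparison do not use the oocyte columns, while the shared spread and the filter behind its calls do. In a fit of these 2 groups alone 0 of the 10 were called higher and 2 lower, beside 7781 of 11935 genes called in either direction. Without overlap 3 were higher and 3 lower, beside 40.3% and 42.9%. After the length correction eri-1 and mut-2 were called lower and none higher, beside 33.7% and 33.8%.

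Between the embryo stages none of the 10 differed by limma's test, and 0 of 10 had an unadjusted p under 0.05. Only 2 of all genes were called (0.0168%), and 78 had an unadjusted p under 0.05. The log2 fold change of 2-cell over 1-cell embryos ran from -0.10 for ego-1 to 0.46 for dcr-1, and all 10 genes overlapped between the stages, whereas 9.39% of all genes lay higher and 6.81% lower without overlap. Set against the 1-cell library of the same replicate number, the 2-cell library was higher for dcr-1 (0.61 and 0.31 log2), mut-7 (0.27 and 0.52), drh-3 (0.13 and 0.38), mut-16 (0.19 and 0.24) and rde-4 (0.05 and 0.15) in both replicates. It was lower in both for rrf-3 (-0.02 and -0.03), and the other genes kept no common direction. How many of all genes kept 1 direction was not computed. No label ties same-numbered libraries, whose deviations correlated at 0.877 between the embryo stages. The log2 difference of mut-2 was -0.37 in replicate 1 and 0.60 in replicate 2. A fit of the embryo libraries alone with a replicate block called 0 genes of the table.

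Other genes of the small RNA pathways were taken from 7 lists, of which 65 of 69 genes were matched in the table and 64 tested. Across these lists 9 were called higher and 8 lower in 1-cell embryos against oocytes, and 12 higher and 23 lower in sperm against 1-cell embryos. Of all genes tested, 17% and 5.92% were called higher and lower in the embryo comparison and 35.3% and 33.2% in the sperm comparison. The 12 higher in sperm include rrf-2, alg-4 and wago-10, which passed the filter on low values only through sperm. Of 6 cofactors of Dicer and the polymerases, rde-1, the Argonaute of exogenous RNAi, was called higher in 1-cell embryos than in oocytes (log2 1.12). In sperm against 1-cell embryos eri-5, an ERI complex Tudor protein gene, was called lower (-1.76) and the polymerase gene rrf-2 higher (1.23). rrf-2 stayed low, at 1.45 and 2.52 RPKM in sperm, against 0.334 and 0.178 RPKM in 1-cell embryos. It was under 1 RPKM in every library outside sperm. The filter thus kept it only through the group where it was called higher, so its call is not support. The cofactor gene eri-3 (-0.42 over oocytes in 1-cell embryos) and the EGO-1 partner gene ekl-1 (0.90) were not called in either comparison.

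In the list of mutator foci and small RNA tailing genes, of 10 tested genes 5 were called lower and 0 higher in sperm than in 1-cell embryos, with a median of -1.59 log2, beside 33.2% of all genes called lower and 35.3% higher, and 0 were called in 1-cell embryos against oocytes. rde-8, an endoribonuclease gene, had 15.1 and 7.29 RPKM in sperm, against 234.9 and 60.8 RPKM in 1-cell embryos (log2 -3.39). rde-2, the MUT-7 partner gene, changed by -2.96 log2 and the RNA helicase gene smut-1 by -2.44. The other mutator foci genes mut-14 (-1.78) and nyn-2 (-2.21) made up the 5.

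Among 18 Argonaute genes, which carry the small RNAs, 7 were called higher and 5 lower in sperm than in 1-cell embryos, beside 35.3% and 33.2% of all genes. The 7 include alg-4 and wago-10, which the filter kept only through sperm, so their calls are not support. The spermatogenesis Argonautes alg-3, at 242 and 309 RPKM in sperm against 1.18 and 0.642 RPKM in 1-cell embryos, and alg-4, at 258.5 and 360.7 RPKM against 0.520 and 0.299 RPKM in 1-cell embryos, bind small RNAs made by the ERI complex. The Argonaute gene ergo-1, which binds such small RNAs in oocytes and embryos, was called lower in sperm, at 25.04 and 8.55 RPKM in sperm, against 73.1 and 58.7 RPKM in 1-cell embryos (log2 -2.08).

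**Figure D4:**
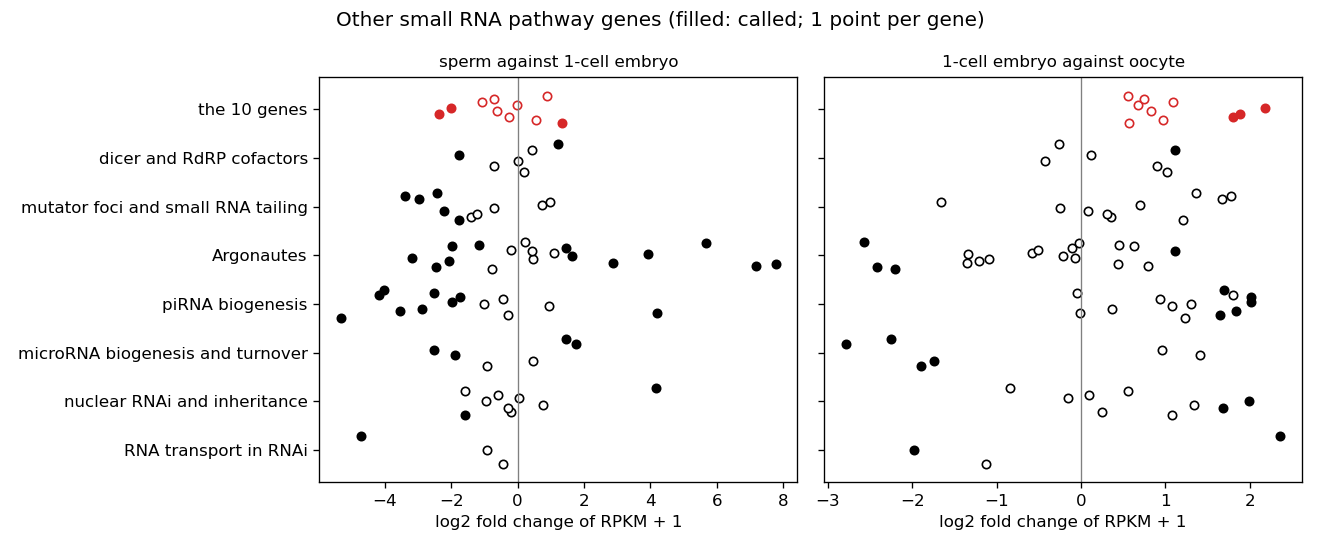
Log2 fold change of RPKM + 1 for sperm against 1-cell embryos (left) and 1-cell embryos against oocytes (right), with 1 point per gene, the 10 genes in red above 7 lists of other small RNA pathway genes; filled points were called. In sperm 5 of 10 mutator and 8 of 13 piRNA biogenesis genes were called lower, beside 33.2% of all genes, and Argonautes spread from -3.17 (nrde-3) to 7.77 (alg-4). The filter on low values kept alg-4 only through sperm.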

How the data were processed

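Polyadenylated RNA of 8 libraries in 4 groups, assigned by sample title, was analysed from RPKM that the authors deposited for 21774 genes. The submitters' processing notes name BWA without a version. The genome build, annotation, counting tool and reads used as the total are not given in the sources used here, so no positions are printed. Gene names matched WBcel235 for 18807 genes, which also gave transcript lengths. Testing kept 11935 genes that reached 1 RPKM in 2 or more libraries. On log2(RPKM + 1), limma 3.58.1 (R 4.3.3) fitted a mean per group to all 8 libraries with a trended variance, and two-sided p-values were adjusted by Benjamini-Hochberg in each of 5 comparisons. The code was tested on simulated data.

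The 10 genes, the lists and the tests were chosen with earlier results of these data known. All 10 genes were described in every comparison. List genes were named where called, up to 3 per list and direction by size. eri-3, ekl-1, mut-14, nyn-2, ain-2, drsh-1 and pash-1 were named after their values were seen. For each of the 10, the table gene with the highest Pearson r was named. Counting error could not be computed without counts. Alternatives were pseudocounts of 0.1 and 5, no filter, 3 scalings, removal of the length trend (loess, 11017 genes with a known length), only the compared groups, a replicate block and leaving out each library. Of the listed symbols drh-2, cde-1, wago-3 and eri-6 were not matched and not analysed here.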

Additional observations from a re-analysis of the deposited data

How the results depend on the processing

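No called difference of the 10 genes changed sign under any alternative run. Of 10 genes called, 3 in 1-cell embryos against oocytes became 1 without the filter on low values, 1 with a common sum, 1 with only the compared groups, 0 with median-of-ratios scaling, 0 with quantile normalization, 5 with the length trend removed, and 0 to 3 with single libraries left out. The 4 called in 2-cell embryos against oocytes became 2 with a pseudocount of 5, 1 without the filter, 2 with a common sum, 0 with median-of-ratios scaling, 0 with quantile normalization, and 0 to 4 with libraries left out. The 4 called in sperm against oocytes became 2 with a common sum (1 higher, 1 lower) and 2 to 4 with libraries left out. The 3 called in sperm against 1-cell embryos ranged from 2 to 4 with libraries left out. The causes were not tested. A group reduced to 1 library was assumed to vary like the others. Over all genes, calls in 1-cell embryos against oocytes were 2740 as reported, 1370 without the filter, 1438 with quantile normalization, and 6 without either oocyte library.

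Differences that were not called and changed sign were as follows. With median-of-ratios scaling, 1-cell embryos against oocytes gave -0.13 for dcr-1, -0.12 for rrf-3 and -0.056 for mut-7. It gave -0.24 for rrf-3 in 2-cell embryos against oocytes, and -0.01 for rde-4 (log2 -0.006) and -0.068 for eri-1 in 2-cell against 1-cell embryos. It also gave -0.41 for rde-4 (-0.405), -0.36 for rrf-1, -0.23 for mut-2 and -0.18 for mut-16 in sperm against oocytes, and 0.072 for ego-1 and 0.31 for mut-7 in sperm against 1-cell embryos. A common sum gave 0.048 for rrf-3 in 2-cell against 1-cell embryos and, in sperm against oocytes, -0.55 for rde-4, -0.50 for rrf-1 (-0.495), -0.38 for mut-2 (-0.375) and -0.33 for mut-16. Quantile normalization gave -1.29 for rrf-1 in sperm against oocytes and 0.18 for mut-7 in sperm against 1-cell embryos. Removing the length trend gave -0.086 for eri-1 in 2-cell against 1-cell embryos, and -0.39 for rde-4 and -0.14 for rrf-1 in sperm against oocytes. With single libraries left out, 2-cell against 1-cell embryos ran from -0.40 to 0.60 for rde-4, -0.12 to 0.19 for eri-1, -0.06 to 0.01 for rrf-3 (-0.055), -0.59 to 0.39 for ego-1, -0.69 to 1.21 for rrf-1, -0.05 to 0.57 for drh-3, -0.63 to 0.86 for mut-2 and -0.19 to 0.61 for mut-16 (0.615). Sperm against oocytes ran from -0.16 to 0.18 for rde-4, -0.078 to 0.14 for rrf-1 and -0.19 to 0.64 for mut-16. Sperm against 1-cell embryos ran from -0.77 to 0.26 for ego-1, -1.66 to 0.24 for rrf-1 and -0.45 to 0.40 for mut-7 (-0.446 and 0.395), and 1-cell embryos against oocytes from -0.21 to 1.69 for rrf-1.

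Replicate numbers are shared between groups without any label that ties libraries together. Deviations of same-numbered libraries correlated across genes at 0.877 between 1-cell and 2-cell embryos and at 0.0905 or less in the other pairs, with -0.171 (-0.1705) between 1-cell embryos and oocytes. With a replicate block 3, 4, 0, 4 and 4 of the 10 genes were called in 1-cell embryos against oocytes, 2-cell embryos against oocytes, 2-cell against 1-cell embryos, sperm against oocytes and sperm against 1-cell embryos, the last with rde-4 added. With the oocyte numbers crossed, chosen after seeing the data, these counts were 4, 6, 0, 4 and 4. No depth was known for oocytes, and 2 libraries per group limited every test.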

Other observations

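Genes of piRNA biogenesis, which feed the same amplification machinery with primary small RNAs, formed 1 of the 7 lists. In 1-cell embryos against oocytes 5 of 13 were called higher and 0 lower, with a median of 1.30 log2, beside 17% of all genes called higher. They included tofu-1 (log2 2.02), tofu-4 (2.02) and pid-1 (1.84). In sperm against 1-cell embryos 8 of 13 were called lower and 1 higher, beside 33.2% and 35.3% of all genes. erh-2, of a complex that acts on piRNA precursors, had 24.5 and 10.7 RPKM in sperm, against 448 and 1054 RPKM in 1-cell embryos. The trimming exonuclease gene parn-1 stood apart with 45.9 and 62.3 RPKM in sperm, against 2.15 and 1.85 RPKM in 1-cell embryos.

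Of 6 genes of microRNA biogenesis and turnover 4 were called lower and 0 higher in 1-cell embryos than in oocytes, beside 5.92% of all genes called lower: the 5' to 3' exonucleases xrn-1 (log2 -2.78) and xrn-2 (-2.25) and the Argonaute partners ain-1 (-1.89) and ain-2 (-1.74). The biogenesis genes of this list, drsh-1 (1.41) and pash-1 (0.96), went the other way. Both 1-cell libraries lay above both oocyte libraries for each, and neither was called. Among 18 Argonaute genes 3 were called lower and 1 higher in this comparison, beside 5.92% and 17% of all genes. Those lower were the microRNA Argonautes alg-2 (-2.42) and alg-1 (-2.20) and the germ granule Argonaute wago-4 (-2.56). Among 9 nuclear RNAi genes 2, nrde-4 (1.98) and nrde-1 (1.68), were called higher in 1-cell embryos than in oocytes and 0 lower. That share is near the 17% of all genes called higher. Of 3 transport genes tested 1 was called higher, sid-5 (2.36), and 1 lower, sid-3 (-1.98).

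The number of table genes that shared a pattern differed widely among the 10. Over the 8 libraries the gene most like eri-1 was smg-4 (Pearson's r 0.997), and 473 of the 6852 genes that averaged 10 RPKM or more had an r over 0.95 with eri-1. The closest gene was rars-2 for rde-4 (0.994), erl-1 for mut-2 (0.995), rps-16 for rrf-3 (0.994), dnc-1 for dcr-1 (0.992), cul-5 for rrf-1 (0.991) and idhg-1 for ego-1 (0.990). It was tnsl-1 for mut-16 (0.980), prmt-7 for drh-3 (0.978) and hoe-1 for mut-7 (0.975). An r over 0.95 was reached by 252 genes for mut-2, 186 for rde-4 and 176 for rrf-3. It was reached by 26 for mut-16, 15 each for dcr-1 and ego-1, 14 for rrf-1, 11 for drh-3 and 3 for mut-7.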
